A study of Mus musculus with 9 samples.

Results

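The 10 genes described here control entry into the cell cycle: the D cyclins Ccnd2 and Ccnd3, their kinases Cdk4 and Cdk6, the CDK inhibitors Cdkn1a (p21), Cdkn1b (p27), Cdkn2c (p18) and Cdkn2d (p19), and the pocket protein genes Rb1 and Rbl2 (p130). They were taken by symbol from the 23393 gene symbols used here, and 10 of the 10 were found and passed the filter on low counts, as did 12219 genes in all. RNA was sequenced from regulatory T cells (Tregs) of mouse spleen, a suppressive CD4 T cell lineage defined by Foxp3. The labels give 3 groups of 3 libraries: ST2-low and ST2-high Tregs, both wild type (WT), and Tregs labelled ST2KO. ST2 is the interleukin-33 receptor encoded by Il1rl1, and the series concerns ischemic kidney injury. The ST2KO label names no ST2 level, so genotype and ST2 level cannot be told apart in either comparison with ST2KO. The labels give no age, sex, strain, treatment or allele, do not say which part of the gene the knockout removes, and leave unsaid how many animals stand behind the replicates, so that the p-values below measure only the spread between these libraries, which may be technical.

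D cyclins are made in response to growth and antigen signals and bind CDK4 or CDK6. The active kinases phosphorylate RB and the related pocket proteins, which otherwise hold E2F transcription factors and their target genes silent, and this lets a cell pass from G1 into S phase. INK4 inhibitors such as p18 and p19 bind CDK4 and CDK6 directly, while CIP/KIP inhibitors such as p21 and p27 bind cyclin-CDK complexes and restrain CDK2. In T cells p27 is abundant at rest, and p130 is the pocket protein that represses cell cycle genes in resting cells. Much of the control of p27, p21 and RB acts on the proteins, which were not measured.

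The libraries held between 11659659 and 43406680 counts, of which the 10 genes took between 0.135% and 0.161%. The lowest count of any of the 10 in any library was 81. Il1rl1 was at 2.62 ± 0.84 CPM (counts scaled by library total and TMM factor; mean ± SD, n = 3) in ST2-low, 495 ± 66.0 in ST2-high and 67.6 ± 14.0 in ST2KO. As a count covers the whole gene, Il1rl1 does not check the knockout label. ST2-high replicate 3 differed most from its fellow replicates, at 7.48 and 8.58 chi-square units per gene, and the remaining within-group pairs lay between 3.77 and 5.47. Without it, 1 of the 10 genes lost a call, Rb1 in ST2-high against ST2-low. Foxp3 lay between 410.2 and 622 CPM in the 9 libraries and was 1.23-fold higher in ST2-high than ST2-low (edgeR adjusted p = 0.000139). Against ST2-low, 3 of 6 listed Treg markers were higher and 0 lower in ST2-high, and 2 higher and 1 lower in ST2KO. Beside these counts, 15.3% of all tested genes were higher and 10.8% lower in ST2-high, and 33.0% higher and 29.3% lower in ST2KO. Ctla4 ranged from 740 to 815 CPM in the ST2KO libraries, below its 1943 to 2030 in those of ST2-low. Il2ra ranged from 460 to 532 CPM in ST2KO, above its 389 to 429 in ST2-low. In a sorted bulk sample, fewer cells of a type and less RNA per cell cannot be told apart.

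The ST2KO libraries had less Cdkn1a and Cdkn1b and more D cyclin transcript than either wild-type group. Cdkn1a was 5.24-fold lower in ST2KO than in ST2-low and Cdkn1b 1.75-fold lower, while Ccnd2, Ccnd3, Cdk4 and Rbl2 were between 1.19-fold and 1.44-fold higher. ST2-high differed from ST2-low by smaller steps: Cdkn2c, Cdkn1a, Rbl2 and Cdk6 were between 1.29-fold and 1.55-fold higher, and Ccnd3, Cdkn1b and Rb1 between 1.11-fold and 1.24-fold lower. Differences were tested with edgeR's quasi-likelihood test across all 12219 genes, and a gene was called when its Benjamini-Hochberg adjusted p was under 0.05.

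In ST2-high against ST2-low, 4 of the 10 genes were higher, 3 lower and 3 not called, while 26.1% of all tested genes were called, 15.3% higher and 10.8% lower. That balance over all genes depended on the filter: 1872 genes were higher and 1317 lower, and 1456 and 1666 with a filter of 5 CPM in 3 samples. In ST2KO against ST2-low, 4 were higher, 2 lower and 4 not called, beside 62.3% of all genes called, 33.0% higher and 29.3% lower. In ST2KO against ST2-high, 3 were higher, 6 lower and 1 not called, beside 64.5% of all genes called, 31.9% higher and 32.6% lower. In ST2KO against ST2-low, the share of the 10 genes called was thus near the background. The 2 comparisons with ST2KO share the same ST2KO libraries. The 3 libraries of a group lay wholly above or below those of the other for 8 of the 10 genes in ST2-high against ST2-low (5 higher, 3 lower), beside 38.1% of all genes (20.5% higher, 17.6% lower). This held for 6 genes in ST2KO against ST2-low (4 higher, 2 lower), beside 67.2% of all genes (36.0% higher, 31.2% lower). In ST2KO against ST2-high it held for 7 genes (3 higher, 4 lower), beside 66.8% of all genes (33.5% higher, 33.3% lower). The median log2 fold change of the 10 genes was 0.13, 0.02 and -0.21 in these comparisons, and that of all tested genes -0.0024, 0.05 and 0.02. The 10 genes summed to 1483 ± 29.9, 1478 ± 31.7 and 1487 ± 55.7 CPM in the ST2-low, ST2-high and ST2KO groups.

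**Figure D1:**
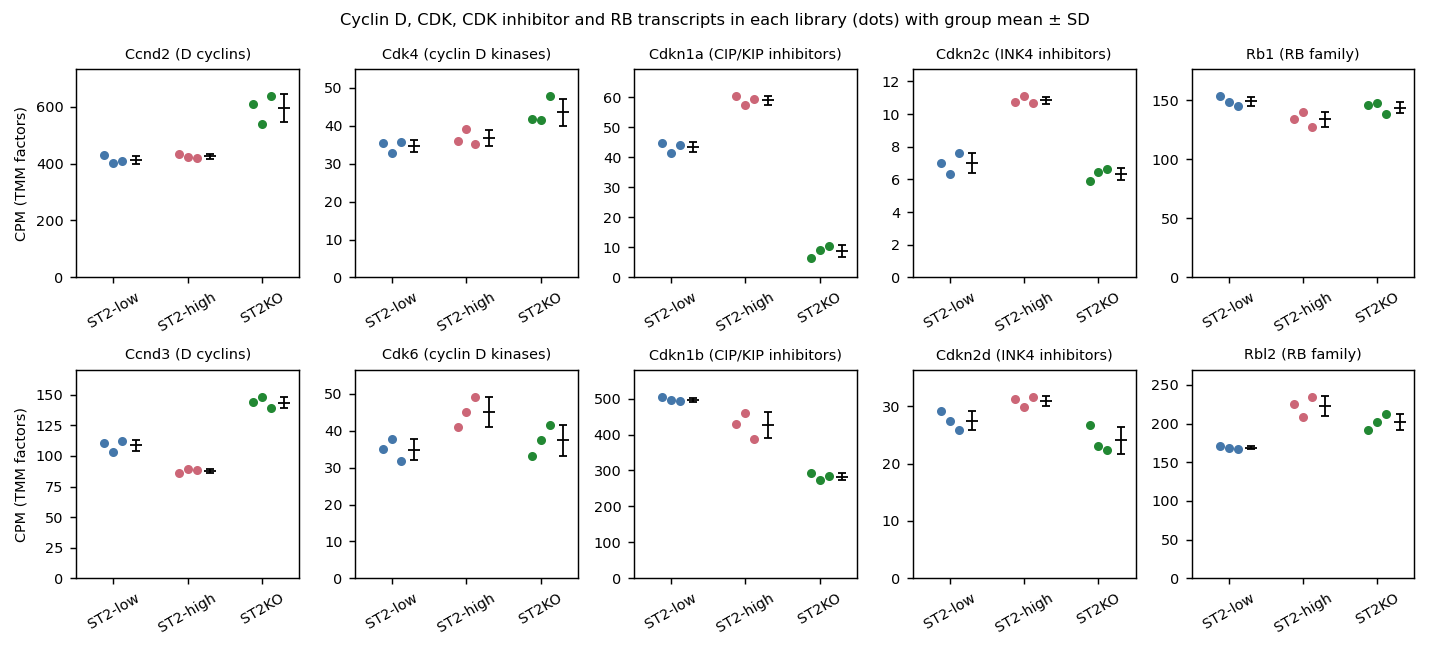
CPM (vertical axes, starting at 0) of the 10 genes in each library, with dots for libraries and a bar for the group mean ± SD (n = 3), and 1 panel per gene. The 3 ST2KO libraries lie below every wild-type library for Cdkn1a and Cdkn1b and above every wild-type library for Ccnd2, Ccnd3 and Cdk4.

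Sequence upstream of the starts was available for 8 of the 10 genes in a RefSeq promoter table of GRCm38.p6, which gives 250 bases before to 50 after a start. The genome build of the count files is not given in the sources used here. Both strands of the 11 promoters were searched for E2F motifs (TTCCCGC and TTGGCGC), the CHR of cell cycle genes (TTTGAA), AP-1 (TGANTCA), FOXO (GTAAACA) and CRE (TGACGT) motifs. The E-box CACGTG, which reads the same on both strands, and the p53 response element (20 bases, without a spacer, with at most 1 base mismatched) were added after the sequences had been read. Below are the promoters of the 2 inhibitor genes that were lower in both comparisons with ST2KO (for Cdkn1a at both its starts in the table), of Cdkn2c, the inhibitor with the largest rise in ST2-high, and of Cdk4, the kinase that was higher in ST2KO, with motif matches in capitals.
Cdkn1a first start, chr17:29090729-29091028, plus strand: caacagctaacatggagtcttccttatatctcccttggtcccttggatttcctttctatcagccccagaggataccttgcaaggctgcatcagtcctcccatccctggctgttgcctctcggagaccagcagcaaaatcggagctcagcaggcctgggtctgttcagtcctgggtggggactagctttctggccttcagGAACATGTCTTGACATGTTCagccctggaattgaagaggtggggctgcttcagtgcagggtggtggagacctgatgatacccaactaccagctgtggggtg
Cdkn1a second start, chr17:29093519-29093818, plus strand: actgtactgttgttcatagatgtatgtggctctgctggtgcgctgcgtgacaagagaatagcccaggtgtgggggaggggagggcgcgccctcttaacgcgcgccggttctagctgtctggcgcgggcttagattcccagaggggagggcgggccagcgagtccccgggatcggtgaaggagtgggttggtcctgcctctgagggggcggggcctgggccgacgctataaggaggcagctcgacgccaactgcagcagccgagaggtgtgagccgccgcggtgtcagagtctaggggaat
Cdkn1b, chr6:134920151-134920450, plus strand: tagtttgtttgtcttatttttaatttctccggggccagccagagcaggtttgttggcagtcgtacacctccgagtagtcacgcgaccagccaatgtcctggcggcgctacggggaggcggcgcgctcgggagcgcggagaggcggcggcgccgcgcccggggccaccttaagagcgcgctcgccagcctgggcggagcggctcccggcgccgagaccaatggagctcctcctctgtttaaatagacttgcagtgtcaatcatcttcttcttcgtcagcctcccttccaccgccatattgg
Cdkn2c, chr4:109666707-109667006, minus strand: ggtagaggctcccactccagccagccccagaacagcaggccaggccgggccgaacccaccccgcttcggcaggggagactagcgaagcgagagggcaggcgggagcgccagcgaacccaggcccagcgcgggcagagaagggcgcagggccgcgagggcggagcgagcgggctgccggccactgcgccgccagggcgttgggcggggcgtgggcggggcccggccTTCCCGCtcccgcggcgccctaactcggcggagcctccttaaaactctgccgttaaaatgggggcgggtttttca
Cdk4, chr10:127063285-127063584, plus strand: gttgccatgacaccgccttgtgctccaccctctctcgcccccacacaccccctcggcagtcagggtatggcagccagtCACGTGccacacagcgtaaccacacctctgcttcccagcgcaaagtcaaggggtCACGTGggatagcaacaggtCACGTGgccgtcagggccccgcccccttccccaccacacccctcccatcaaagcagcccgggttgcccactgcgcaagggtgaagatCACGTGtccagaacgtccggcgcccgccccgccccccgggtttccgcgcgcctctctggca

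The promoter of the first Cdkn1a start held a p53 response element with 1 of its 20 bases mismatched, at bases 200 to 219 of the window. Such an element stood in 0.0883% of 32851 promoters of the same length, and one without a mismatch in 0.00913% of them and in 0 of these 11. The Cdkn2c promoter held an E2F motif (TTCCCGC) that begins 25 bases before the start, a motif present in 4.6% of all promoters. The Cdk4 promoter held 4 E-boxes. At least 1 E-box stood in 7.15% of all promoters, and 4 or more in 0.0244% of them. The cut of 4 and the allowance of 1 mismatch equal what was found in these promoters, so these shares do not measure how unusual they are. The promoter of the second Cdkn1a start and the Cdkn1b and Cdkn2d promoters held none of the motifs searched, which says only that these letters are not in these windows. A CRE motif stood in 1 of the 2 Ccnd3 promoters, a FOXO motif in the other, an E-box in the Cdk6 promoter and in the second Cdkn2c promoter, and a CHR in the Rbl2 promoter. The CRE, FOXO and CHR motifs were present in 7.51%, 3.65% and 17.9% of all promoters.

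D cyclins are the regulatory subunits that switch on CDK4 and CDK6. Ccnd2, the main D cyclin transcript of these cells by counts per length, was at 429, 402 and 408 CPM in ST2-low replicates 1, 2 and 3. It was at 433, 423 and 419 CPM in ST2-high and at 608, 539.6 and 635 CPM in ST2KO. The ST2-low and ST2-high libraries overlapped, and all 3 ST2KO libraries lay above them. Ccnd2 was 1.44-fold higher in ST2KO than in ST2-low (log2 fold change 0.53 ± 0.06, SE; edgeR adjusted p = 1.54e-09) and 1.40-fold higher than in ST2-high (edgeR adjusted p = 7.2e-09). Between ST2-high and ST2-low its log2 fold change was 0.04 ± 0.06 (edgeR adjusted p = 0.646).

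Ccnd3 encodes the D cyclin on which early lymphocyte expansion depends. It was at 111, 103 and 112 CPM in ST2-low, at 86.2, 89.0 and 88.3 CPM in ST2-high and at 144, 148 and 139 CPM in ST2KO. The 3 groups did not overlap, with ST2-high lowest and ST2KO highest. Ccnd3 was 1.24-fold lower in ST2-high than ST2-low (log2 fold change -0.31 ± 0.05, SE; edgeR adjusted p = 4.87e-05). It was 1.32-fold higher in ST2KO than ST2-low and 1.64-fold higher than in ST2-high (edgeR adjusted p = 8.7e-08 and 7.22e-13). Ccnd2 made up 79.2 ± 0.61% of the counts of the pair in ST2-low, 82.9 ± 0.47% in ST2-high and 80.5 ± 1.81% in ST2KO.

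CDK4 and CDK6 are the catalytic partners of D cyclins and are closely related kinases. Cdk4 was at 35.3, 32.8 and 35.8 CPM in ST2-low, 35.9, 39.1 and 35.1 CPM in ST2-high and 41.7, 41.4 and 47.7 CPM in ST2KO. The wild-type groups overlapped and the ST2KO libraries lay above them, by 1.25-fold over ST2-low (edgeR adjusted p = 0.000462) and 1.18-fold over ST2-high (edgeR adjusted p = 0.00605). Cdk6 was at 34.9, 37.7 and 31.9 CPM in ST2-low, 40.9, 45.1 and 49.0 CPM in ST2-high and 33.2, 37.5 and 41.5 CPM in ST2KO. ST2-high lay above ST2-low without overlap, and ST2KO overlapped both. Cdk6 was 1.29-fold higher in ST2-high than ST2-low (edgeR adjusted p = 0.00157) and 1.21-fold lower in ST2KO than in ST2-high (edgeR adjusted p = 0.00503). Against ST2-low, Cdk6 was thus the kinase gene called higher in ST2-high, and Cdk4 the one called higher in ST2KO. The share of Cdk6 in the counts of the pair, however, overlapped between ST2-low and each other group. Against ST2-high, leaving out ST2-high replicate 1 ended the call of Cdk4 (edgeR adjusted p = 0.0527; 0.000503 to 0.0527 over its alternatives) and leaving out ST2KO replicate 1 that of Cdk6 (edgeR adjusted p = 0.0879; 0.000817 to 0.0879).

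CIP/KIP inhibitors bind cyclin-CDK complexes. Cdkn1a encodes p21, which p53 and many other signals induce. It was at 44.7, 41.6 and 44.1 CPM in ST2-low, 60.3, 57.3 and 59.5 CPM in ST2-high and 6.64, 9.29 and 10.6 CPM in ST2KO. The 3 groups lay far apart compared with the spread within them. Cdkn1a was 1.36-fold higher in ST2-high than ST2-low (log2 fold change 0.44 ± 0.09, SE; edgeR adjusted p = 0.000385). It was 5.24-fold lower in ST2KO than in ST2-low (log2 fold change -2.39 ± 0.11, SE; edgeR adjusted p = 1.35e-16) and 7.12-fold lower than in ST2-high (log2 fold change -2.83 ± 0.11, SE; edgeR adjusted p = 1.94e-18). Of the 12219 genes tested, 120 fell further in ST2KO against ST2-low and 78 further in ST2KO against ST2-high. No other of the 10 genes differed between groups by 2-fold or more.

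Cdkn1b encodes p27, the inhibitor of resting lymphocytes, and had the highest level per length of the 10 genes in the wild-type groups. It was at 503, 495 and 492 CPM in ST2-low, 430.2, 461 and 389 CPM in ST2-high and 293, 272 and 284 CPM in ST2KO. The groups did not overlap and fell in that order, with ST2-high replicate 3 the lowest wild-type library. Cdkn1b was 1.16-fold lower in ST2-high than ST2-low (log2 fold change -0.22 ± 0.06, SE; edgeR adjusted p = 0.00311), 1.75-fold lower in ST2KO than in ST2-low (log2 fold change -0.81 ± 0.06, SE; edgeR adjusted p = 1.25e-13) and 1.51-fold lower in ST2KO than in ST2-high (edgeR adjusted p = 1.39e-10). Without ST2-high replicate 3 the first of these calls was kept. The CIP/KIP genes differed in ST2-high, where Cdkn1a was higher and Cdkn1b lower, and were both lower in ST2KO. Cdkn1a made up 8.05 ± 0.26% of the counts of the pair in ST2-low, 12.2 ± 1.11% in ST2-high and 3.04 ± 0.73% in ST2KO.

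Among markers of other spleen cells, those of myeloid and dendritic cells were lower in ST2KO. The 11 tested myeloid and dendritic cell markers, among them Lyz2, Csf1r and C1qa, summed to 152 to 201 CPM in ST2-low, 142 to 144 in ST2-high and 44.1 to 58.0 in ST2KO, and 9 of the 11 were lower in ST2KO than in ST2-low. The 10 B cell markers summed to 114 to 172, 131 to 164 and 103 to 132 CPM, so these sums overlapped, and 5 of the 10 were lower in ST2KO than in ST2-low. Of all tested genes, 29.3% were lower in that comparison. None of these myeloid and B cell markers was at 0 in all libraries. The 7 CD8 T and NK cell markers summed to 34.2 to 35.1, 27.0 to 29.96 and 26.5 to 33.4 CPM, and the 5 tested erythroid and platelet markers to 13.9 to 20.7, 10.8 to 15.03 and 15.6 to 19.97 CPM. The part of these cells in the differences of the 10 genes was not tested.

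INK4 inhibitors bind CDK4 and CDK6 and keep D cyclins from joining them. Cdkn2c (p18), the least abundant of the 10 genes, was at 7.02, 6.34 and 7.59 CPM in ST2-low, 10.7, 11.1 and 10.7 CPM in ST2-high and 5.93, 6.43 and 6.63 CPM in ST2KO. ST2-high stood above the other groups, which overlapped. Cdkn2c was 1.55-fold higher in ST2-high than ST2-low (log2 fold change 0.63 ± 0.14, SE; edgeR adjusted p = 0.000709) and 1.73-fold lower in ST2KO than in ST2-high (edgeR adjusted p = 1.03e-05). Its log2 fold change in ST2KO against ST2-low was -0.16 ± 0.14 (edgeR adjusted p = 0.339). Cdkn2d (p19) was at 29.1, 27.4 and 25.8 CPM in ST2-low, 31.2, 29.9 and 31.5 CPM in ST2-high and 26.7, 23.0 and 22.4 CPM in ST2KO. It was 1.27-fold lower in ST2KO than in ST2-high (edgeR adjusted p = 0.000875). Against ST2-low its log2 fold change was 0.17 ± 0.08 in ST2-high (edgeR adjusted p = 0.144), although these groups did not overlap, and -0.17 ± 0.09 in ST2KO (edgeR adjusted p = 0.085).

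The last difference passed with DESeq2 size factors (edgeR adjusted p = 0.0359), with the 6 samples compared alone (edgeR adjusted p = 0.0352) and without ST2KO replicate 1 (edgeR adjusted p = 0.0206), with 0.0206 to 0.306 over its alternatives. All 4 inhibitor genes of the list were lower in ST2KO than in ST2-high, whereas against ST2-low only the CIP/KIP pair was called lower. Of all tested genes, 32.6% were lower in ST2KO than in ST2-high and 29.3% lower than in ST2-low. The share of Cdkn2c in the counts of the INK4 pair was 20.3 ± 2.09% in ST2-low, 26.0 ± 0.91% in ST2-high and 20.9 ± 2.45% in ST2KO.

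RB and p130 are the pocket proteins that CDK4, CDK6 and CDK2 inactivate. Rb1 was at 153, 149 and 145 CPM in ST2-low, 134, 140.0 and 127.5 CPM in ST2-high and 146, 147 and 139 CPM in ST2KO, the narrowest range of group means among the 10 genes. It was 1.11-fold lower in ST2-high than ST2-low (edgeR adjusted p = 0.0262). That call was lost without ST2-low replicate 1 or 2 (edgeR adjusted p = 0.11 and 0.0619) and without ST2-high replicate 1 or 3 (0.0648 and 0.0777), with 0.00564 to 0.11 over its alternatives. Rb1 did not pass in ST2KO against ST2-low (log2 fold change -0.05 ± 0.05; edgeR adjusted p = 0.406), where upper-quartile factors turned its sign, or against ST2-high (log2 fold change 0.10 ± 0.05; edgeR adjusted p = 0.0799; 0.00281 to 0.45 over its alternatives).

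Rbl2 was at 170.4, 169 and 167 CPM in ST2-low, 225, 209 and 234 CPM in ST2-high and 191, 203 and 212 CPM in ST2KO. All ST2-high and ST2KO libraries lay above ST2-low, and these 2 groups overlapped. Rbl2 was 1.32-fold higher in ST2-high than ST2-low (log2 fold change 0.40 ± 0.05, SE; edgeR adjusted p = 6.81e-07) and 1.19-fold higher in ST2KO than in ST2-low (log2 fold change 0.26 ± 0.05, SE; edgeR adjusted p = 0.000122). It was 1.10-fold lower in ST2KO than in ST2-high (edgeR adjusted p = 0.019), a call lost with upper-quartile factors and without ST2KO replicate 1 (edgeR adjusted p = 0.292 and 0.145; 0.00354 to 0.292 over its alternatives). Rbl2 made up 53.1 ± 0.38% of the counts of Rb1 and Rbl2 in ST2-low, 62.4 ± 2.42% in ST2-high and 58.4 ± 1.91% in ST2KO. Of this pair, Rbl2 was thus higher than ST2-low in both other groups, while Rb1 stayed within 1.11-fold between group means.

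**Figure D2:**
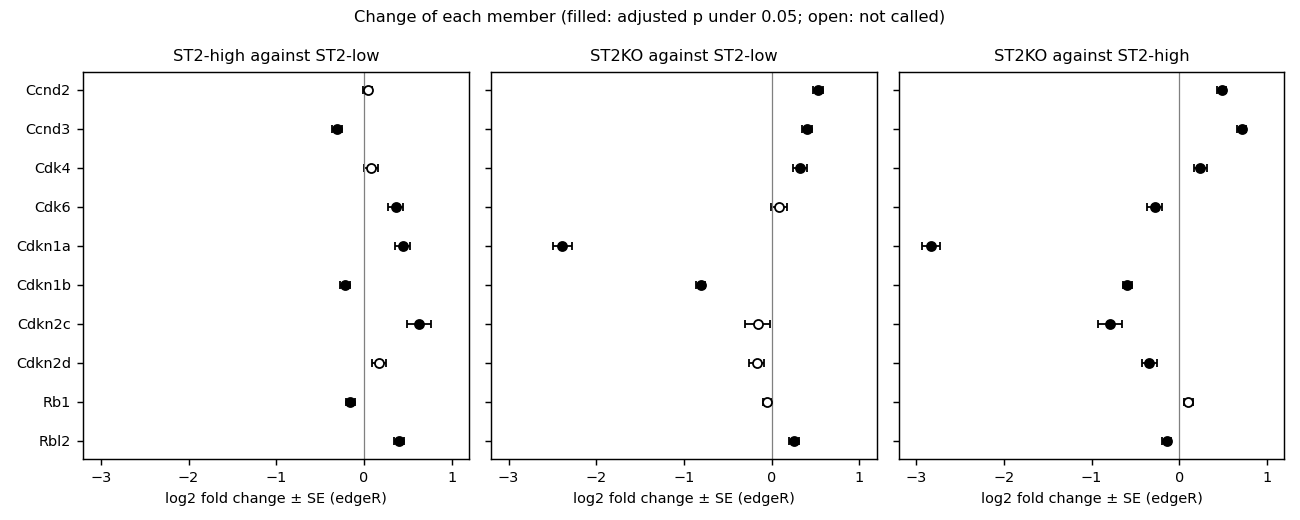
Log2 fold change ± SE from edgeR (horizontal axes) of the 10 genes in the 3 comparisons; filled circles have an adjusted p under 0.05 and open circles do not. In the comparisons with ST2KO, Cdkn1a lies at -2.39 and -2.83, while the other 9 genes lie between -0.81 and 0.71.

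A ratio of 2 genes within a library does not depend on its total or on a normalization factor. There were 117, 123 and 121 Cdkn1b counts per 100 Ccnd2 counts in ST2-low, 99.3, 109 and 92.8 in ST2-high and 48.2, 50.5 and 44.7 in ST2KO. Per 100 Ccnd2 counts there were 10.4, 10.4 and 10.8 Cdkn1a counts in ST2-low, 13.9, 13.6 and 14.2 in ST2-high and 1.09, 1.72 and 1.68 in ST2KO. No pair of groups overlapped in either ratio. The inhibitor to cyclin ratio was thus lowest in ST2KO for both genes, and ST2-high lay below ST2-low for Cdkn1b and above it for Cdkn1a. Each of the 6 differences had p = 0.1 in a two-sided exact permutation test (adjusted p = 0.1), the smallest p that 3 against 3 can give, so the design could not reach 0.05. These ratios were chosen after seeing the data.

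The shares within the 5 gene pairs were compared in the same way in 15 tests. The groups did not overlap in 10 of them, each with an exact permutation p of 0.1 (adjusted p = 0.15). The share of Rbl2 in the pocket protein pair was 9.34 percentage points higher in ST2-high than ST2-low and 5.30 points higher in ST2KO than in ST2-low. The share of Cdkn2c in the INK4 pair was 5.66 points higher in ST2-high than ST2-low. The share of Cdk6 in the kinase pair was 8.92 points higher in ST2-high, at 55.0 ± 2.80%, than in ST2KO, at 46.1 ± 1.67%. In ST2-low it was 50.1 ± 3.19% and overlapped both other groups (exact permutation p = 0.2 against each, adjusted p = 0.231).

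**Figure D3:**
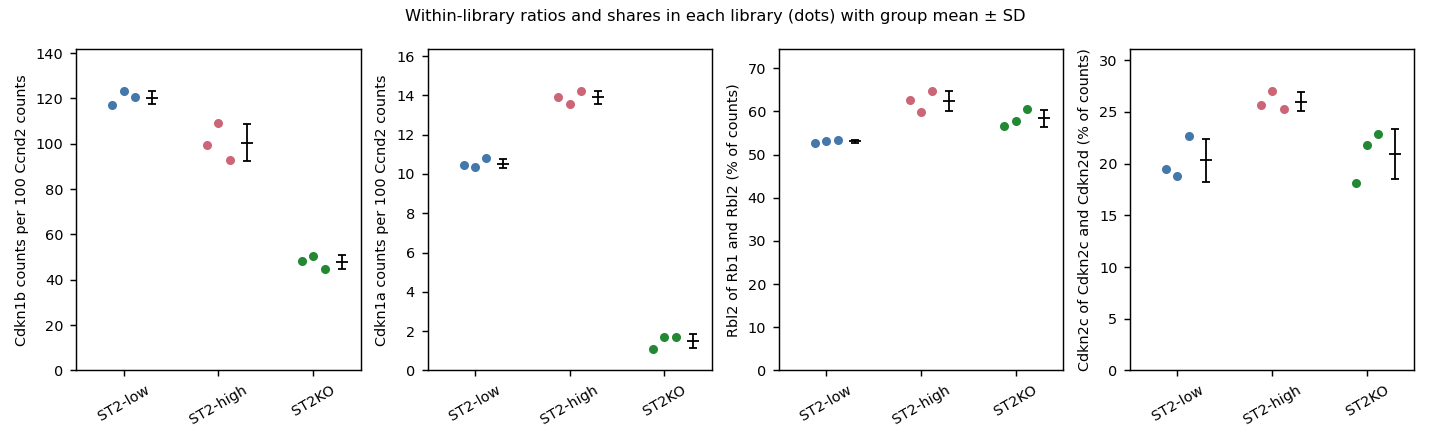
Counts of Cdkn1b and of Cdkn1a per 100 Ccnd2 counts and the percent of Rbl2 and of Cdkn2c in their pairs, with dots for libraries and a bar for the group mean ± SD (n = 3; axes start at 0). ST2KO libraries lie between 44.7 and 50.5 Cdkn1b counts per 100 Ccnd2 counts, and the wild-type libraries between 92.8 and 123.

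Levels were compared between genes as CPM per kb of merged exon (GENCODE M21 basic annotation, with the build of the files not known). On that scale Cdkn1b stood highest in ST2-low, at 109 ± 1.27, followed by Ccnd2 at 61.5 ± 2.13 and Ccnd3 at 44.4 ± 1.95. In ST2KO that order was turned, with Ccnd2 at 88.6 ± 7.35, Cdkn1b at 62.2 ± 2.32 and Ccnd3 at 58.7 ± 1.82. The kinase genes differed widely, with Cdk4 at 16.9 ± 0.79 and Cdk6 at 3.02 ± 0.25 in ST2-low. Cdkn1a went from 16.0 ± 0.61 in ST2-low to 3.26 ± 0.75 in ST2KO, next to Cdk6. Cdkn2d stood at 18.6 ± 1.12 and Cdkn2c at 2.60 ± 0.23 in ST2-low, so p19 was the more abundant INK4 transcript.

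The genes around this control point were read from lists chosen by function. Their counts stand beside 15.3% of all tested genes called higher and 10.8% lower in ST2-high against ST2-low, and 33.0% higher and 29.3% lower in ST2KO against ST2-low. Among the other G1 cyclins, CDKs and inhibitors, 10 of 12 were tested, and 3 were higher and 4 lower in ST2KO than in ST2-low, near the background of 62.3% called. Ccne2, a cyclin E that drives CDK2, was at 12.1 CPM in ST2-low, 17.9 in ST2-high and 5.51 in ST2KO. Cdkn1c, the third CIP/KIP inhibitor, took the same course as Cdkn1a, at 4.89, 8.37 and 2.85 CPM, and its differences were called in all 3 comparisons (edgeR adjusted p = 0.000844, 0.000989 and 1.3e-08). Cdk7, the CDK-activating kinase, was at 22.8, 18.6 and 28.6 CPM.

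Of 17 E2F, DP, p107 and MuvB genes, 9 were higher and 0 lower in ST2-high than ST2-low, with a median log2 fold change of 0.28 beside -0.0024 for all genes. In ST2KO against ST2-low, 5 were higher and 3 lower. Rbl1, which encodes p107, the pocket protein of cycling cells, was at 44.3, 51.8 and 86.2 CPM in the ST2-low, ST2-high and ST2KO groups and was 1.94-fold higher in ST2KO than in ST2-low (edgeR adjusted p = 7.66e-14). E2f2, an activating E2F, was at 16.7, 32.6 and 34.2 CPM. Lin54, the DNA-binding subunit of the MuvB complex that joins p130 in resting cells, was at 70.1, 89.6 and 34.0 CPM.

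Of 24 E2F target genes of S phase, 15 were higher and 0 lower in ST2-high than ST2-low, and 1 was higher and 12 lower in ST2KO than in ST2-low. Cdt1 and Orc1, which license replication origins, were at 38.0 and 3.36 CPM in ST2KO against 99.6 and 11.4 in ST2-low. Uhrf1 and Rrm2 differed less, at 20.1 and 19.6 CPM in ST2KO against 24.4 and 19.7 in ST2-low, and Rrm2 was not called (edgeR adjusted p = 0.939). In that comparison 11 of the 24 genes were not called, and their median log2 fold change was -0.32 over all 24. Of 20 G2 and M phase genes, 20 were higher in ST2-high than ST2-low, while in ST2KO against ST2-low 4 were higher, 1 lower and 15 not called. Mki67, a marker of dividing cells, was at 126 ± 9.96, 307 ± 4.20 and 137 ± 5.10 CPM in the ST2-low, ST2-high and ST2KO groups. Lower Cdkn1a and Cdkn1b and higher D cyclin transcripts in ST2KO thus stood beside 12 of 24 S phase genes lower than in ST2-low. The Mki67 level of ST2KO did not pass against ST2-low (edgeR adjusted p = 0.069). In ST2-high, the group with the most division transcripts, the means of Cdkn1a, Cdkn2c, Cdkn2d, Rbl2 and Cdk6 were at their highest. Those of Ccnd3 and Rb1 were at their lowest there, and those of Cdkn1b, Ccnd2 and Cdk4 lay between the other groups. Inhibitor, kinase, cyclin and pocket protein genes thus did not move in 1 direction in ST2-high, and not all of these differences were called.

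**Figure D4:**
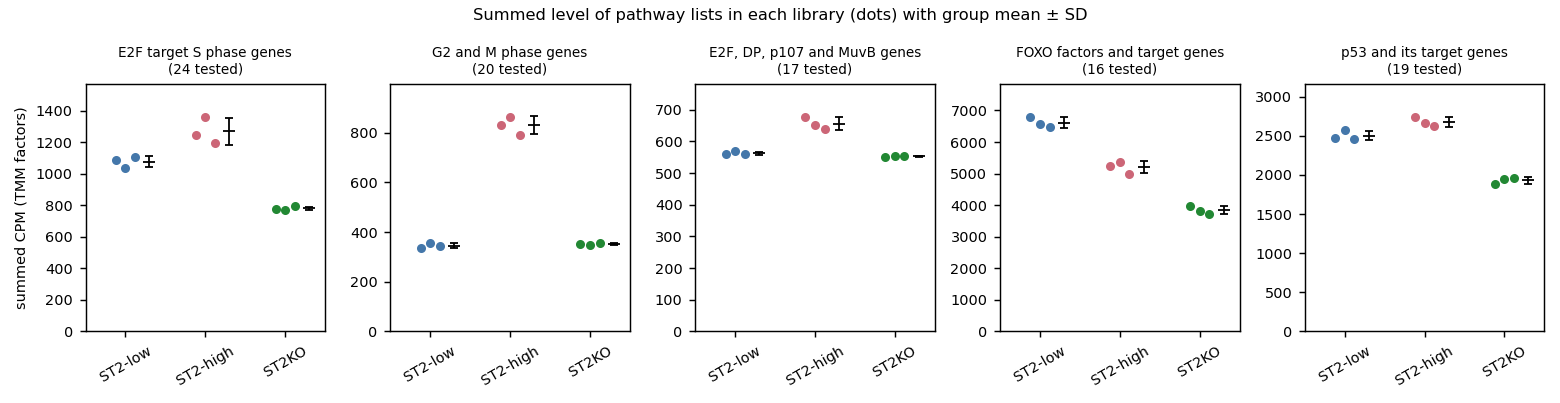
Summed CPM (vertical axes, starting at 0) of the tested genes of 5 pathway lists in each library, with dots for libraries and a bar for the group mean ± SD (n = 3). G2 and M phase genes sum to 345 ± 11.3, 830 ± 36.1 and 353 ± 3.41 CPM in the ST2-low, ST2-high and ST2KO groups, and FOXO genes to 6615 ± 171, 5196 ± 189 and 3838 ± 134 CPM, of which Ccr7 gives 2004, 1382 and 180.2 CPM.

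Upstream of the inhibitors, p53 induces Cdkn1a and FOXO factors induce Cdkn1b and other genes of resting cells. Of 19 tested genes of p53 and its targets, 7 were higher and 9 lower in ST2KO than in ST2-low, where 33.0% of all genes were higher and 29.3% lower, and 5 higher and 3 lower in ST2-high than ST2-low. Pmaip1, a BH3-only death gene, was at 115, 117 and 31.3 CPM in the ST2-low, ST2-high and ST2KO groups, and Trp53inp1 at 963, 1202 and 702 CPM. Plk2, at 88.0, 58.0 and 39.2 CPM, and Btg2, at 659, 558 and 410 CPM, were lower in ST2-high than ST2-low, where Cdkn1a was higher (edgeR adjusted p = 9.31e-09 and 0.000619). None of these named genes is among the 7 that were higher in ST2KO. Of 16 FOXO factors and targets, 10 were lower and 2 higher in ST2-high than ST2-low, and 9 lower and 5 higher in ST2KO. Ccr7, the receptor that guides T cells to lymph nodes, was at 2004, 1382 and 180.2 CPM and made up much of the summed level. Without Ccr7 the FOXO genes summed to 4610.1 ± 127, 3814 ± 105 and 3658.0 ± 129 CPM, and the ST2-high and ST2KO libraries overlapped. Klf2, a factor that holds T cells at rest, was at 674, 473 and 310.0 CPM, the same order of groups as Cdkn1b, and Bcl2l11, which encodes the death factor BIM, at 208, 145 and 82.6 CPM. Ccr7, Klf2 and Bcl2l11 are not among the 5 FOXO genes that were higher in ST2KO. A part of FOXO factors in the Cdkn1b differences was not tested. Of 12 tested quiescence and antiproliferative genes, 1 was higher and 5 lower in ST2-high and 2 higher and 6 lower in ST2KO, each against ST2-low. Tob1 and Tob2, antiproliferative partners of the mRNA deadenylase, were at 135 and 826 CPM in ST2-low and at 62.3 and 286 CPM in ST2KO. In ST2-high they were at 104 and 965.5 CPM, Tob1 lower and Tob2 higher than in ST2-low (edgeR adjusted p = 9.41e-05 and 0.00138).

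Genes of the turnover of these proteins were also measured. Of 16 of them, 5 were higher and 1 lower in ST2-high than ST2-low, and 4 higher and 5 lower in ST2KO than in ST2-low, where 62.3% of all genes were called. Dtl, the substrate receptor that directs p21 to degradation in S phase, was at 29.1, 37.7 and 8.49 CPM in the ST2-low, ST2-high and ST2KO groups. Cks1b, the cofactor of SKP2 in p27 degradation, was at 5.26, 8.99 and 3.45 CPM. Cul4a, the scaffold of the ligase that carries Dtl, went the other way, at 28.0, 28.7 and 45.7 CPM.

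Of the 10 genes, Cdkn1a, Cdkn1b and Cdkn2c had the widest range between group means, and for these the most similar patterns were sought among 8798 genes over the 9 libraries. The genes of such a correlation share the libraries, which fall in 3 groups. The closest to Cdkn1a were Dusp4, a MAP kinase phosphatase, Rnf125, a ubiquitin ligase, and Ncaph2, a condensin subunit (Pearson r of log2 CPM = 0.997, 0.995 and 0.995). Dusp4 was at 690.0, 863 and 184 CPM in the ST2-low, ST2-high and ST2KO groups. The closest to Cdkn1b were Sat1, Eif5 and Slc30a1 (r = 0.996, 0.995 and 0.994), and the closest to Cdkn2c were Uhrf1, Mettl21d and Gzmb (r = 0.993, 0.987 and 0.986). Uhrf1, a maintenance DNA methylation factor of S phase, was at 24.4, 45.7 and 20.1 CPM.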

How the data were processed

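The deposited values are read counts, whole numbers listed by gene symbol, with a file for each of the 9 spleen Treg libraries (per the file headers and from the values). Aligner, build, annotation, counting tool, strand setting and sorting protocol: not given in the sources used here, so reads of overlapping or antisense genes could not be told apart. Of 23420 rows, 27 whose symbol had become a calendar date were left out. The fit used edgeR 4.0.16 (limma 3.58.1, R 4.3.3): TMM factors, filterByExpr by group (minimum count 10, minimum total 15), robust glmQLFit on all 9 samples with 1 coefficient per group and Benjamini-Hochberg adjustment over 12219 genes. CPM use TMM factors. The 10 members and the lists were chosen with earlier results of these data known. Named genes are the 10 members, up to 4 genes per list, those with the lowest adjusted p among genes at 1 CPM or more on average, and 3 genes most like each of 3 members, at 5 CPM or more. Within-pair shares were tested by exact permutation. The edgeR fit was tested on simulated data. The main fit did not pair the samples by replicate number. Alternatives were other size factors, DESeq2 1.42.0, limma-voom, other filters, fewer samples, Rn45s left out and a replicate block.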

Additional observations from a re-analysis of the deposited data

How the results depend on the processing

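The counts of the 10 genes called kept within 1.5 times under every alternative run: 6 to 7 in ST2-high against ST2-low (7), 6 to 7 in ST2KO against ST2-low (6) and 7 to 10 in ST2KO against ST2-high (9). With each replicate left out, the counts of all genes called lay between 2478 and 3266, 6952 and 7355, and 7127 and 7775. Of the values of single genes under an alternative, 434 kept their direction and their side of the threshold, 8 lost the call, 7 gained it and 1 changed sign: the log2 fold change of Rb1 in ST2KO against ST2-low, not called, was 0.020 with upper-quartile factors. The difference of the Cdkn2c share between ST2KO and ST2-low ranged from -0.326 to 2.001 percentage points with a replicate left out, and was -0.134 without ST2-low replicate 2. Pairing by replicate number was not borne out: correlations of deviations between same-numbered samples lay between -0.0626 and 0.0984. With 3 libraries per group, such values cannot show whether same-numbered samples came from the same animals. The fit with the replicate number as a block called 7, 6 and 9 of the 10 genes in the 3 comparisons, and 3210, 7622 and 7885 of all genes. Upper-quartile factors shifted the median log2 fold change of all genes by 0.0789 in ST2KO against ST2-high, the largest shift of the other size factors. Of the 10 genes, Cdkn2c had the fewest counts, at 81 in the shallowest library, and the widest SE. In ST2-high against ST2-low, 1872 genes were higher and 1317 lower, against 1691 and 1612 with DESeq2 size factors and 1456 and 1666 with the filter of 5 CPM.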
